A study of Mus musculus with 4 samples.

Results

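The chitinase-like gene cluster of mouse chromosome 3 was examined for trimethylation of lysine 9 on histone H3 (H3K9me3) in cultured CD8+ T cells. It was defined as 5 genes, Chia1, Chil3, Chil4, Chil5 and Chil6, out of 21774 protein-coding genes in the RefSeq annotation of the mm10 assembly. They were mapped within a window of 600 kb, chr3:105900001-106500000. The genes were picked because the longest stretch of H3K9me3 in each of 2 deposited lists lies among them, so length and cover at the locus are given as a description, with no test. The window held 8 of the 12371 wild-type stretches and 13 of the 25424 knockout stretches.

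The cells were CD8+ T cells of C57BL/6 background, grown for 3 days with IL-2 and with anti-CD3 and anti-CD28 antibodies. They were wild-type littermate cells (WT) or cells of Suv39h1-KO genotype (KO), which lack a histone methyltransferase that places H3K9me3. The study asked where this enzyme deposits the mark during CD8+ T cell differentiation. Each genotype had 1 H3K9me3 library and 1 input library, and the inputs are not analysed here. Neither the way the knockout was made nor the number of mice is given in the sources used here. The values are enriched stretches, called islands, with a count of reads in each.

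H3K9me3 marks silent chromatin, and it is common over repeats and over tandem gene families that a tissue does not use. The chitinase-like genes belong to glycoside hydrolase family 18 and arose by repeated duplication. Chia1 encodes acidic mammalian chitinase, a secreted enzyme of stomach and lung that cuts chitin. Chil3 and Chil4 encode the proteins Ym1 and Ym2, which resemble chitinases but lack the enzyme activity. Ym1 is widely used as a marker of alternatively activated macrophages, and both are abundant in type 2 inflammation of the airway. Chil5 and Chil6 encode further chitinase-like proteins.

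In both genotypes islands lay close together over the middle of the cluster and covered less of its ends. The middle stretch, termed the block, is bounded by WT island edges and runs from the start of Chia1 past Chil3, Chil4 and the pseudogene Gm6522, chr3:106113001-106324000. It held 3 islands in WT and 6 in KO, and its first 8 kb, with the Chia1 start, held no KO island. WT islands covered 93.6% of these 211 kb and KO islands 83.2%, with 175 kb in both. It held 82.1% of the WT island length in the window and 81.6% of the KO island length. Chil5 on one side lay outside islands in both libraries, and Chil6 on the other side held an island in KO alone.

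**Figure D1:**
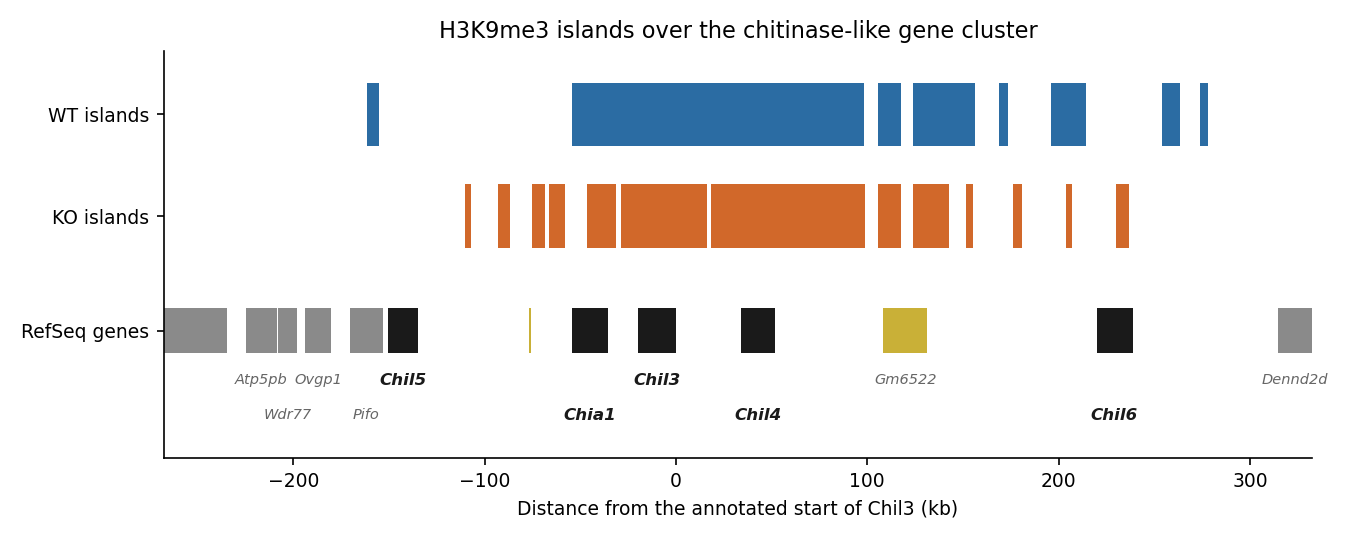
Map of the window, with distance from the annotated start of Chil3 in kb on the x axis and a row each for WT islands, KO islands and RefSeq genes (black, the 5 cluster genes; grey, other protein-coding genes; yellow, pseudogenes; long non-coding genes are not drawn). The WT island of 153 kb spans Chia1, Chil3 and Chil4, and 3 KO islands lie under it.

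The pair of genes at the centre, Chil3 and Chil4, were the members covered whole in both genotypes. Chil3 (chr3:106147554-106167564, minus strand) had 100% of its 20 kb body in islands in WT and 100% in KO. Chil4 (chr3:106201491-106219479, minus strand) likewise had 100% of 18 kb covered in each. Their annotated starts lay far from any island edge. The Chil3 start was 54.6 kb and 98.4 kb from the ends of its WT island, and 28.6 kb and 16.4 kb from the ends of its KO island. The Chil4 start was 106 kb and 46.5 kb from the WT ends, and 33.5 kb and 47 kb from the KO ends.

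The 250 bases before the start of each of these 2 genes therefore lay inside islands in both lists, whereas those of Chia1 did so in WT alone. They are shown to let the promoters that lay under the mark be compared with each other. They are from RefSeq (GRCm38.p6), read 5′ to 3′ on the strand of the gene. Capitals mark the TATA box TATAAA, the 10-base run TAAAAAGCCA and the STAT-type motif TTCNNNGAA.
Chil3, chr3:106167565-106167814, minus strand: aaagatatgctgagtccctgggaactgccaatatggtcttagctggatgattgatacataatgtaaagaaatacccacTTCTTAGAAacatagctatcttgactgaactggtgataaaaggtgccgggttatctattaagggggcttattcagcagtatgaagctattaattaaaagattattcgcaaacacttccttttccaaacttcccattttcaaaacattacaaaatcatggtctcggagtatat
Chil4, chr3:106219480-106219729, minus strand: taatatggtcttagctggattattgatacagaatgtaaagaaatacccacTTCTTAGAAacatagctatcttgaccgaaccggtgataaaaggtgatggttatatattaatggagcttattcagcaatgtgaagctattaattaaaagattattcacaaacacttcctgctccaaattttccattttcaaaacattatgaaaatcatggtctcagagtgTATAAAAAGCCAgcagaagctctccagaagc
Chia1, chr3:106113132-106113381, plus strand: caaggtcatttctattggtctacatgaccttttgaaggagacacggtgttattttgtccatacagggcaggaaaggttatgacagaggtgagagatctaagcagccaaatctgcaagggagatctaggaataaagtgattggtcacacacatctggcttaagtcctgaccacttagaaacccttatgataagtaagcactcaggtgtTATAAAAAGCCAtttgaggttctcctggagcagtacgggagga

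The Chil3 and Chil4 promoters are near copies, with 201 matches over 223 aligned columns, or 90.1% identity. The other 9 pairs among the 5 promoters aligned at 52.9% to 60.6%, over 66 to 265 columns. How reads matching more than one copy were placed is not given in the sources used here, so reads may have been exchanged between Chil3 and Chil4, and the effect on island counts was not tested. GC content was 36.4% in Chil3, 34% in Chil4, 43.6% in Chia1, 36.4% in Chil5 and 35.6% in Chil6, against a median of 52.4% over 32851 RefSeq promoters. The CpG count was 3, 2, 2, 0 and 0 in the same order, against a median of 6.

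Motifs were searched on both strands of the whole 300-base RefSeq windows, which add 50 bases after the start. TATAAA was found in 4 of the 5 (all but Chil5) and in 13.6% of all RefSeq promoters. It begins 43 bases before the annotated start in Chia1, 31 before it in Chil4 and 204 before it in Chil6. In Chil3 it crosses the start, so it is not marked in the bases shown. TAAAAAGCCA, the longest run that at least 4 of the 5 windows share, was found in Chia1, Chil3, Chil4 and Chil5 and in 43 of the 32851 windows (0.131%). The run was picked from these promoters, which fixes its count among them. The run overlaps the TATA box in Chia1, Chil3 and Chil4. It begins 41 bases before the annotated start in Chia1, 29 before it in Chil4, 1 before it in Chil3 and 37 past the start base in Chil5. TTCNNNGAA was found in Chil3, Chil4 and Chil6 and in 8.30% of all promoters. The form with a 4-base spacer bound by STAT6, TTCNNNNGAA, was found in none of the 5 windows and in 6.95% of all. TTGCNNAA, a C/EBP-type motif, was found in Chil4 and Chil6 and in 10.8% of all. A match describes letters only.

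Chia1 was the member whose cover differed at its start. The gene (chr3:106113382-106132118, plus strand) had 100% of its 18.7 kb in the WT island and 59.3%, or 11.1 kb, in a KO island. The WT island began 0.381 kb before the Chia1 start. That is less than a step of the 500 bp grid, so the cover of the promoter in WT rests on the first step of the island. The KO island at the gene began 7.62 kb past the start, and the KO island on the other side ended 3.88 kb before it. In the KO list the Chia1 promoter and the first part of the gene therefore fell in a gap of 11.5 kb between islands. An uncalled stretch is not shown to lack the mark, since the threshold behind the calls is not known here.

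Chil6 had an island in KO alone. The gene (chr3:106387384-106406201, minus strand) had 0% of its 18.8 kb in WT islands, the nearest lying 5.38 kb away, and 37.2% in a KO island of 7 kb. That island, chr3:106397501-106404500, ended 1.68 kb short of the Chil6 start, so the promoter was outside. Its density of 40.9 reads per kb was close to the KO median of 40.1. The island stayed when only islands denser than the median of their list were kept, with Chil6 still 37.2% covered in KO. It was lost with islands of at least 10 kb and when the KO list was reduced to the WT number of islands. Both of these settings left 5 KO islands and 171.5 kb in the window. With 10 kb on each side of the gene, Chil6 was 11.9% covered in WT and 18% in KO.

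Chil5 (chr3:106016919-106032949, minus strand) had 0% of its 16 kb covered in either genotype. The nearest WT island lay 4.42 kb from the gene and the nearest KO island 24.6 kb. The gene lies 80.4 kb from Chia1, and 4 KO islands but no separate WT island lay in that interval.

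Islands touched 3 of the 5 members in WT and 4 in KO, beside 12.4% and 12.3% of all protein-coding gene bodies. At least 50% of the body was covered in 3 members in WT and in 3 in KO, beside 2.71% and 3.22% of all genes. These were the same 3 genes in both, Chia1, Chil3 and Chil4, beside 0.854% of all genes that reach 50% in each list. The whole body was covered in 3 members in WT and in 2 in KO, beside 1.39% and 2.06%, and 2 were covered whole in both, beside 0.491%. The median share of the body covered was 100% over the members in WT and 59.3% in KO, while the median over all genes was 0% in each. An island in KO without one in WT, as at Chil6, occurred in 5.54% of all genes. The whole 300-base promoter window was in an island for 3 members in WT and 2 in KO, beside 2.86% and 3.46% of all promoters, and for 2 in both, beside 0.752%. Since the locus was chosen for its islands, nothing is read from the distance to these shares.

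**Figure D2:**
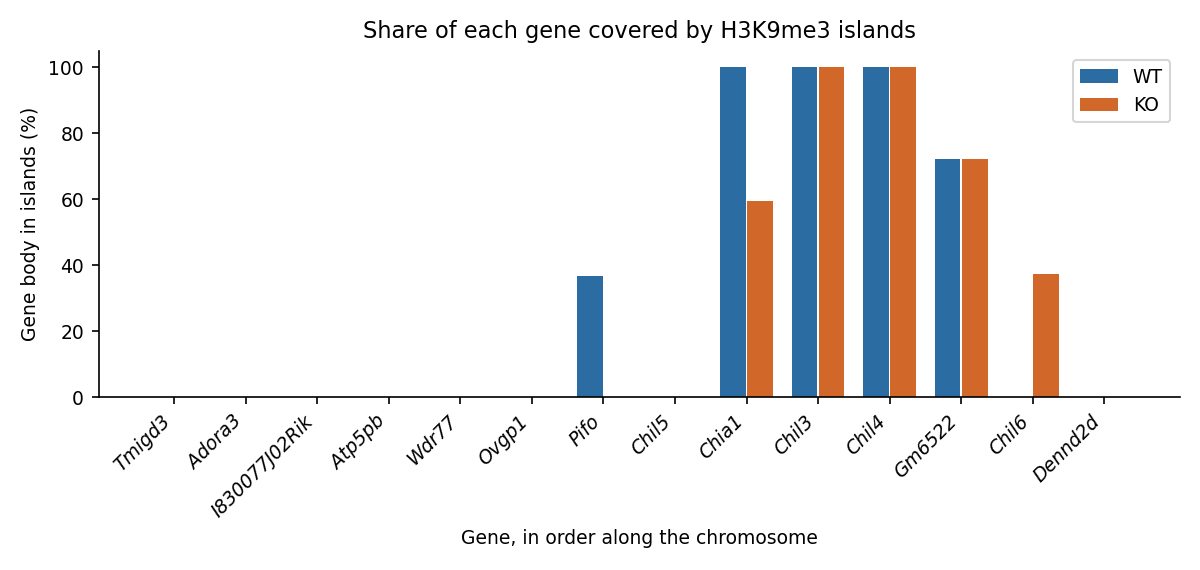
Percent of each gene body inside islands (y axis) for the 13 protein-coding genes of the window and the pseudogene Gm6522, in chromosome order, for WT (blue) and KO (orange), 1 library each. Chil3 and Chil4 are at 100% in both, Chia1 at 100% and 59.3%, Chil6 at 0% and 37.2%, and Chil5 at 0% in both.

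Of the other 8 protein-coding genes of the window, 1 held a WT island and 0 a KO island, near the 12.4% and 12.3% over all genes. Those without one included Atp5pb, a subunit of mitochondrial ATP synthase, Wdr77, a partner of an arginine methyltransferase, the adenosine receptor gene Adora3, Dennd2d, Tmigd3 and I830077J02Rik, each at 0% in both genotypes. Ovgp1, which encodes an oviduct glycoprotein of the same hydrolase family, was also at 0% in both. Pifo, a gene of primary cilia, had 6.50 kb (36.7%) in a WT island and 0% in KO. Of the 6 genes that do not code for protein, Gm6522 had an island, with 16.8 kb (72.1%) covered in each genotype. The pseudogenes Gm4540, Gm9504 and Gm4248 and the long non-coding genes Gm42722 and 2010016I18Rik had none.

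The WT list followed the locus with 8 islands of 4 to 153 kb, 240.5 kb in all. The first, chr3:106006001-106012500, was 6.50 kb long with 296 reads and lay in Pifo, 100.5 kb before the next. The second was the long island over Chia1, Chil3 and Chil4, chr3:106113001-106266000. After gaps of 7 kb and 6.50 kb came 2 islands that reach into Gm6522, chr3:106273001-106285000 and chr3:106291501-106324000, the latter 32.5 kb long with 2109 reads. The last 4 were chr3:106336501-106341000, chr3:106363501-106382000, chr3:106421501-106431000 and chr3:106441501-106445500. These measured 4.50, 18.5, 9.50 and 4 kb, held 251, 684, 420 and 205 reads, and followed gaps of 12.5, 22.5, 39.5 and 10.5 kb. They lay on either side of Chil6 and touched no gene.

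The KO list held more and shorter islands at the locus, 13 of 3 to 80.5 kb, 215 kb in all. Their median length was 7 kb, against 10.75 kb in WT. The order was the same over the whole lists, with 25424 KO islands of median 9 kb and 12371 WT islands of median 10 kb. The first 4 KO islands of the window lay between Chil5 and Chia1, at chr3:106057501-106060500, chr3:106074501-106081000, chr3:106092501-106099000 and chr3:106101001-106109500. They measured 3, 6.50, 6.50 and 8.50 kb with 158, 276, 271 and 334 reads. Under the long WT island lay chr3:106121001-106136000 at Chia1 (15 kb, 924 reads), chr3:106139001-106184000 at Chil3 (45 kb, 3032 reads) and chr3:106186001-106266500 at Chil4 (80.5 kb, 5719 reads). The gaps between these 3 were 3 kb and 2 kb, and both lay between genes. The smallest gap anywhere in either list was 2 kb. Joining islands across gaps of up to 5 kb left 10 KO islands and 8 WT islands in the window.

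Beyond Chil4, KO islands lay at chr3:106273001-106285000 (12 kb, 884 reads), chr3:106291501-106310500 (19 kb, 1389 reads) and chr3:106319001-106323000 (4 kb, 197 reads). The last 3 were chr3:106343501-106348500 (5 kb, 221 reads), chr3:106371501-106374500 (3 kb, 157 reads) and the island within Chil6 (7 kb, 286 reads). Gaps between neighbouring KO islands had a median of 10 kb and reached 23 kb, against a median of 12.5 kb and a highest value of 100.5 kb in WT. Outside the window, the next WT islands lay 224 kb before the first and 193 kb after the last, and the next KO islands 530 kb and 225.5 kb away. Chromosome 3 as a whole held 900 WT and 2109 KO islands. These distances were not compared with the spacing elsewhere on it.

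Most of the cover at the locus was common to both genotypes. Both lists shared 178 kb of the window, which is 74.0% of the WT cover and 82.8% of the KO cover, with 62.5 kb in WT alone and 37 kb in KO alone. Over the whole lists the shared part was 32.1% of WT and 17.5% of KO cover. The locus was chosen because the longest island of each list lies in it, so nothing is read from that difference. Of the WT islands, 4 of 8 touched KO cover, and 7 of the 13 KO islands touched WT cover. All 3 WT and all 6 KO islands of the block were among these. In the block 88.6% of WT and 99.7% of KO island length was shared, and in the rest of the window 6.98% and 7.59%. The KO islands covered 140 of the 153 kb of the long WT island, and the 3 stretches they left measured 8 kb at Chia1, 3 kb and 2 kb.

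Total cover in the window was 25.5 kb lower in KO than in WT, a ratio of 0.894. Over the span of the member genes alone it was 5.5 kb lower in KO (215 against 220.5 kb), a ratio of 0.975. Covered length over the whole lists was 136 Mb in WT and 249 Mb in KO. Over chromosome 3 islands took 6.29% of the sequence up to the last island in WT and 12.7% in KO, while in the window they took 40.1% and 35.8%. The autosomes were also divided into 4087 tiles of 600 kb. Among them 4 had at least as much WT cover as the window, 135 had at least as much KO cover, and 2 had both. The window was chosen for its islands, so nothing is read from its place among the tiles. More WT than KO cover was found in 39.4% of the 3648 tiles with any island, so that order is common. With 1 library per genotype, a difference of this size cannot be set against replicate error.

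Between neighbouring members the shares differed along the cluster. The 15.4 kb between Chia1 and Chil3 were 100% covered in WT and 80.6% in KO. The 33.9 kb between Chil3 and Chil4 were 100% covered in WT and 94.1% in KO. The 168 kb between Chil4 and Chil6 were 67.9% covered in WT and 53.6% in KO. The 80.4 kb between Chil5 and Chia1 were 0.474% covered in WT and 30.5% in KO. Thus the KO cover was larger than the WT cover on the Chil5 side of the block and smaller inside it. The edges of the block were set by WT islands, which favours WT cover inside it, so nothing is read from this order. Gene bodies of the 5 members held 23.6% of the WT island length in the window and 26.1% of the KO length, and most of the rest lay between genes.

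Read density was higher in the block than in the rest of the window in both libraries. Summed over islands it was 72.7 reads per kb in the block and 43.2 outside it in WT, and 69.2 and 43.1 in KO. Within the block WT islands held 64.9 to 83.4 reads per kb, and outside it 37 to 55.8. In KO the block ran from 49.3 to 73.7 and the rest from 39.3 to 52.7, with an overlap due to the 4 kb island at the end of the block. The list medians were 40.4 in WT and 40.1 in KO, with 99th percentiles of 59 and 55.5. The deposited counts are not scaled to depth or input, so a density is placed within its own list. Intervals are exact Poisson 95% intervals and cover counting error only.

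The long WT island held 11249 reads, or 73.5 per kb (95% interval 72.2 to 74.9), rank 39 of 12371 by density. The KO islands beneath it had 61.6 reads per kb at Chia1 (57.7 to 65.7), 67.4 at Chil3 (65 to 69.8) and 71.0 at Chil4 (69.2 to 72.9). These took ranks 112, 70 and 57 of 25424. Together they held 9675 reads, or 68.9 per kb (67.5 to 70.2). Among the 3, the Chia1 and Chil4 intervals do not overlap, while the Chil3 interval overlaps both. All 3 KO values lay above the 99th percentile of their list. The median was 39.7 reads per kb over the 207 WT islands of at least 25 kb and 39.4 over the 337 in KO. Some of the longest were as dense or denser, with 152 at WT rank 2 by length, 81.8 at WT rank 9, 73.1 at KO rank 7 and 87.3 at KO rank 10.

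**Figure D3:**
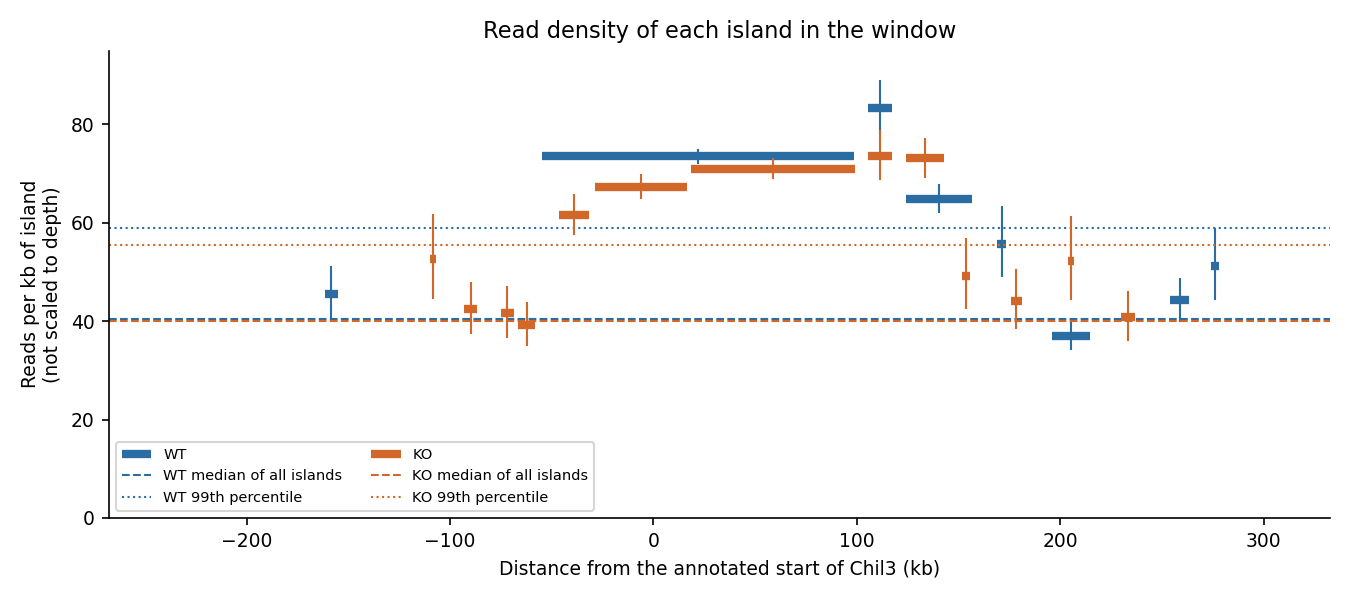
Reads per kb of each island in the window (y axis, not scaled to depth) against distance from the annotated start of Chil3 in kb. Thick bars span the islands of WT (blue) and KO (orange), thin vertical lines are exact Poisson 95% intervals, and dashed and dotted lines are the median and 99th percentile of each whole list. The islands over Chia1, Chil3 and Chil4 sit at 61.6 to 73.5, above both dotted lines, and the KO islands between Chil5 and Chia1 sit at 39.3 to 52.7.

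The island at Gm6522, chr3:106273001-106285000, had the same first and last base in both lists and allows a direct look at the counts. It held 1001 reads in WT (83.4 per kb, 78.3 to 88.7) and 884 in KO (73.7 per kb, 68.9 to 78.7), the densest island of the window in each list. The KO to WT ratio was 0.883 (exact 95% interval 0.806 to 0.968, counting error only). Across the 67 islands with equal coordinates in both lists the median ratio was 1, with quartiles of 0.916 and 1.04. Of these 67, 7 had a lower ratio than Gm6522. The ratio compares 2 libraries and not 2 conditions, and it carries no scaling.

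**Figure D4:**
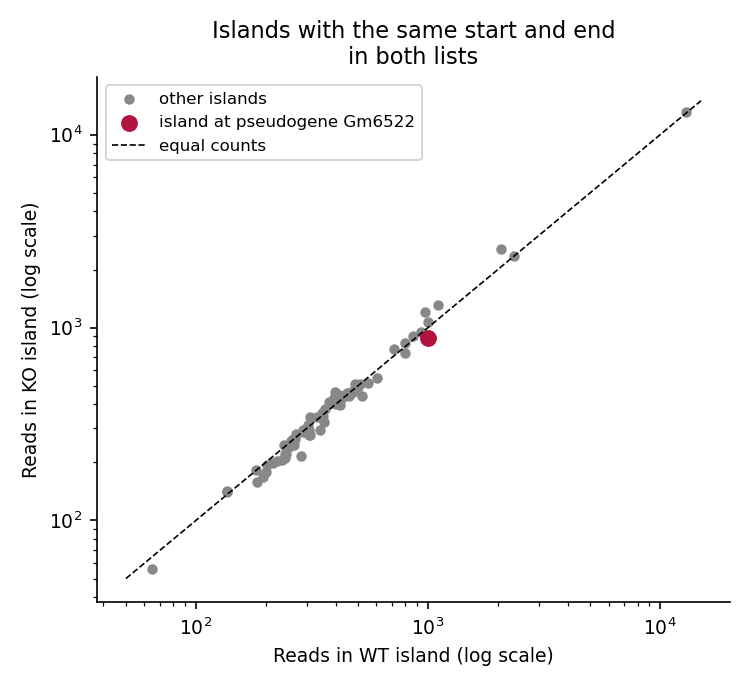
Reads in WT (x axis, log scale) and KO (y axis, log scale) for the 67 islands with the same start and end in both lists, with equal counts as a dashed line. The island at Gm6522 (red, 1001 and 884 reads) lies just below the line.

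By length the locus came first in each list. The WT island of 153 kb was followed by 111 kb at the Ugt1a, Hjurp and Trpm8 locus and by 61.5 kb on chromosome 13. The KO island of 80.5 kb was followed by 79.5 kb in Lrrc7, so that its first rank rests on 1 kb. The KO island of 45 kb at Chil3 ranked 15, and the WT island of 32.5 kb at Gm6522 ranked 57. Of the WT island at the cluster, 91.5% was covered in KO, and of the KO island 99.4% in WT. Other long islands ranged widely. The second WT island had 0% and the third 95.9%, while the second KO island had 40.9%. WT rank 9 and KO rank 7 were at 100%, and KO rank 10 at 96.8%. Over all islands of at least 25 kb, the median share covered by the other list was 36.5% in WT and 19.4% in KO. At least 90% was covered for 14 of 207 and 12 of 337. The locus was chosen because the longest island of each list lies there, so nothing is read from its distance to these values.

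**Figure D5:**
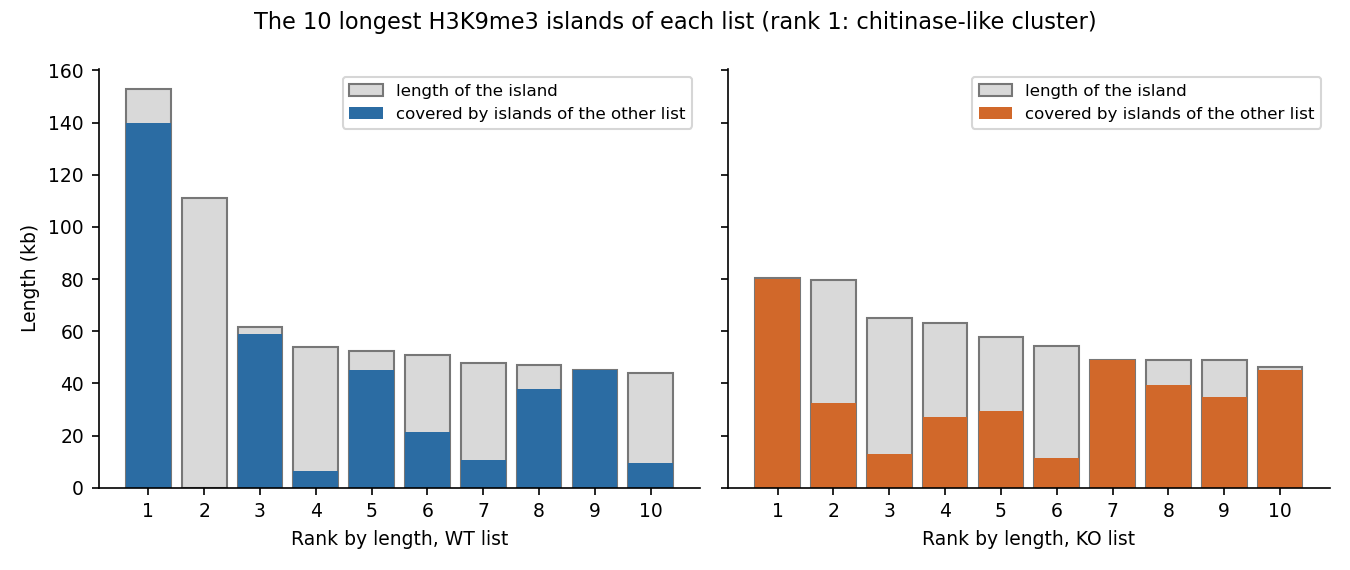
Length in kb (y axis) of the 10 longest islands of the WT list (left) and the KO list (right) by rank, with the coloured part showing the length covered by islands of the other list. Rank 1 on both sides is the chitinase-like cluster, where 91.5% of the WT island and 99.4% of the KO island are covered.

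The genes outside the window most like Chil3 and Chil4 were sought among those with at least 90% of the body covered in both lists, ranked by length covered in both. There were 112 such genes, with a median length of 0.957 kb, and 4 were longer than 15 kb. Chil3 and Chil4 ranked 3 and 4. The 5 others highest in rank were the zinc finger gene Zfp985 (29.4 kb in both), the major urinary protein gene Mup5 (26.7 kb), Rsph4a, a gene of cilia (10 kb), the olfactory receptor gene Olfr44 (9.79 kb), and Mrgprb2, a receptor of mast cells (7.09 kb). The likeness rests on cover in 2 libraries and favours long genes.

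Other genes of glycoside hydrolase family 18 were too few for their share with an island to be told apart from that of all genes. Of 5 relatives, Ovgp1, Chit1, Chil1, Chid1 and Ctbs, none had an island in WT and 1 had one in KO, beside 12.4% and 12.3% of all genes. That gene was Ctbs, a lysosomal chitobiase gene elsewhere on chromosome 3, with 6.85 kb (44.5%) in KO alone. Of 25 genes expressed with Ym1 and Ym2 in alternatively activated macrophages or the type 2 inflamed airway, 2 lay under a WT island and 3 under a KO island. These shares are near the background. Mrc1, the mannose receptor, had 18 kb of WT cover and 15 kb of KO cover, and the lipoxygenase gene Alox15 had 7 and 5.50 kb. The cytokine gene Il33 had 9 kb in KO alone. The other 22 had none. The median share covered was 0% for both gene lists in each genotype, as over all genes.

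Of 10 genes expressed in CD8+ T cells but not all particular to them, such as Cd3e, Cd8a and Gzmb, none had an island in either genotype. Of 6 macrophage genes, Adgre1 had one in each (14.5 kb of WT cover, 11.5 kb of KO cover). Beside 12.4% and 12.3% of all genes, these counts are near the background. Islands of a silent mark give no level of expression, so the labelled cell type and the expression of the cluster were not tested.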

How the data were processed

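H3K9me3 was measured by chromatin immunoprecipitation and paired-end sequencing in 2 genotypes, with 1 library each. Bowtie2, SICER 1.1 and the mm10 build are named in the submitters' processing notes. Window, gap and threshold settings, handling of duplicates and repeats, and use of the inputs are not stated there. Deposited lists give the position of each island on a grid of 500 bp and a whole-number count per island, taken as ChIP reads. The authors' counts carry no scaling, and library depth is not known. The WT list holds 5547695 reads in islands and the KO list 10020253. Positions were converted to count from 1.

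Genes and promoters came from RefSeq (GRCm38.p6). The table's 365 nuclear genes on scaffolds outside the chromosomes were left out. Exons were not used here, so position is given as inside or outside genes. Cover was computed from gene start to end without flanks, and lists overlap where at least 1 bp is shared. Promoters were aligned globally with Biopython 1.88 with free end gaps. Interval arithmetic (Python 3.11.15, pandas 2.3.3, scipy 1.17.1) was tested on simulated data.

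Named genes are the members, all RefSeq genes in the window, 5 relatives of the same hydrolase family, the 3 with an island from a type 2 list (at most 4 by rule), cell type markers and the 5 genes most like the members. The members and lists were chosen with earlier results of these data known. No test between genotypes is possible with 1 library each, so none was made. Alternatives were denser or longer islands, a KO list of WT size, joined islands, the span of the member genes, stricter overlap and gene flanks. Tiles, equal-coordinate islands, block summaries and promoter comparisons were chosen after the data were seen.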

Additional observations from a re-analysis of the deposited data

How the results depend on the processing

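No paired analysis was possible because a genotype comprises 1 library only. KO cover in the window was below WT cover in every setting run. Values that moved beyond binomial intervals over 500 bp steps, Poisson intervals or 1.5 times follow, and 67 of 93 values on the window and its gene counts did not. Keeping islands denser than the median of their list, WT cover was 222 kb, KO minus WT -15.5 kb, the shared part 78.8% of WT cover and WT density 70.0 reads per kb. With the KO list reduced to the WT number of islands (a step that can only lower KO cover), KO had 5 islands, 171.5 kb and 69.7 reads per kb, KO minus WT was -69 kb and 99.7% of KO cover was shared. With islands of at least 10 kb, WT had 4 islands, 216 kb and 69.6 reads per kb and KO 5, 171.5 kb and 69.7, KO minus WT was -44.5 kb, 79.2% of WT and 99.7% of KO cover was shared, and 0 neighbouring genes had a WT island. Over the span of the member genes, WT had 5 islands, 220.5 kb and 69.4 reads per kb, KO minus WT was -5.5 kb and 80.7% of WT cover was shared. Joining islands across gaps of up to 5 kb put KO at 62.4 reads per kb. With 10 kb on each side, 5 members had a WT island. Cover there was 75.2% for Chia1, 15.5% for Chil5 and 11.9% for Chil6 in WT, and 18% for Chil6 in KO. Chil6 fell to 0% in KO in the reduced list and with islands of at least 10 kb. Settings for read density and for neighbouring genes were chosen after the data were seen. Library depth and input signal limit every call, and neither is known here.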
